A study of Mus musculus with 24 samples.

Results

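The lysosomal cathepsins and their cystatin inhibitors were followed through 10 genes: Ctsa, Ctsb, Ctsc, Ctsd, Ctsh, Ctsl, Ctss, Ctsz, Cst3 and Cstb. Each was taken from the row of the expression table whose annotation gives that symbol alone. These genes and the lists below were chosen with earlier results of these data known. The shares of all rows set beside their counts are therefore a description and no test. All 10 were measured, by 1 row each, among 14939 rows that carry 1 symbol and 23238 rows in all. The 24 samples, with 1 exon array each, were total RNA of the right hippocampus of BALB-c mice aged 10 days. The extraction protocol, given alike for all samples, calls this the side of the ligated carotid artery. The 4 groups of 6 arrays were sham-injured without erythropoietin (EPO, the hormone of red cell formation; "sham none"), sham-injured with high-dose recombinant EPO ("sham EPO"), brain-injured without EPO ("injured none") and brain-injured with EPO ("injured EPO"). The comparisons ask what the injury changed, what EPO changed, and whether the response to EPO differed after injury. When EPO was given, how much of it, and at what age the injury was made are not stated in the labels. The tissue is a mixture of cells, so more cells of a type and more RNA per cell cannot be told apart.

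The group names follow the injury status and treatment stated for each sample. The titles (Sham_N, Sham_Y, Epo_N and Epo_Y) can also be read with the first word as the treatment and the letter as the injury, which would exchange sham EPO and injured none. Limma called 4445 rows (adjusted p under 0.05) between the arrays labelled sham EPO and sham none, and 0 between injured none and sham none. Which reading is right was not tested, so every direction below is that of the groups as labelled. On the log2 scale the array medians lay between 5.05 and 5.43, and pairs of arrays correlated at 0.952 to 0.993. The array medians ran from 5.12 to 5.25 in sham none and from 5.3 to 5.43 in sham EPO, without overlap. In injured none they ran from 5.18 to 5.33, and in injured EPO from 5.05 to 5.37. Fits with each array centred on its median are therefore given as well. Precision is limited by having 6 arrays a group. The labels do not say that each array is a separate animal, so the p-values measure the spread between these samples, which may in part be technical.

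Cathepsins are the proteases of the lysosome, where they break down proteins delivered by endocytosis, phagocytosis and autophagy. Most are cysteine proteases of the papain family, while cathepsin D is an aspartic protease and cathepsin A a serine carboxypeptidase. Cystatins block the cysteine cathepsins: cystatin C (Cst3) is secreted and cystatin B (Cstb) stays in the cytosol. In the brain, microglia and macrophages are rich in these enzymes, and neurons depend on cathepsin D to clear their lysosomes.

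The promoters of 7 of the 10 genes were found in the RefSeq table of GRCm38.p6, each as 250 bases before and 50 bases from a transcript start. Ctsb, Ctsh and Cstb were not in it. Both strands were searched for CACGTG, the E-box core bound by the lysosomal regulators TFEB and TFE3, and for its extended form TCACGTGA, which contains the core. They were also searched for 2 GAAA repeats with any 2 bases between them, a motif of interferon regulatory factors (IRF), and for GAGGAAGT, a motif of the myeloid factor PU.1. The windows of Ctsd and Ctsa are shown because they held the extended E-box, that of Ctss because it held the IRF and PU.1 motifs, and that of Cst3 because it held none of these motifs. The window of Ctsz, which is not shown, held none of them either. Capitals mark the motifs.
Ctsd (chr7:142387778-142388077, minus strand): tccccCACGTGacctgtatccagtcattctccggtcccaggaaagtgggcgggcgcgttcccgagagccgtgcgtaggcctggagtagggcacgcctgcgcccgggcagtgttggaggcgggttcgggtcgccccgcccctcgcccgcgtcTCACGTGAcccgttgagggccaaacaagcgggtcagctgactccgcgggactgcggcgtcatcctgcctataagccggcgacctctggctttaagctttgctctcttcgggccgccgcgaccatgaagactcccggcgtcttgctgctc
Ctsa, the downstream of 2 starts (chr2:164833523-164833822, plus strand): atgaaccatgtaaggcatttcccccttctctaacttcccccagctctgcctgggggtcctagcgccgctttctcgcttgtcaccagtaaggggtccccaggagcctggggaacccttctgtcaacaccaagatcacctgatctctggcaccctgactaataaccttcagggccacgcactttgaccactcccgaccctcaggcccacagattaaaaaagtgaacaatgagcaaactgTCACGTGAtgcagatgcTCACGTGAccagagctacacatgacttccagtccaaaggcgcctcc
Ctss (chr3:95526536-95526835, plus strand): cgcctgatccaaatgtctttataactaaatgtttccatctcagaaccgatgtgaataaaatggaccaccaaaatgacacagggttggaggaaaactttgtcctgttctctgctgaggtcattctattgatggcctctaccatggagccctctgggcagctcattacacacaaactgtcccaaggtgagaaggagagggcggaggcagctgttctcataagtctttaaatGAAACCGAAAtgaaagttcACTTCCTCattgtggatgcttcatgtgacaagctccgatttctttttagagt
Cst3 (chr2:148875463-148875762, minus strand): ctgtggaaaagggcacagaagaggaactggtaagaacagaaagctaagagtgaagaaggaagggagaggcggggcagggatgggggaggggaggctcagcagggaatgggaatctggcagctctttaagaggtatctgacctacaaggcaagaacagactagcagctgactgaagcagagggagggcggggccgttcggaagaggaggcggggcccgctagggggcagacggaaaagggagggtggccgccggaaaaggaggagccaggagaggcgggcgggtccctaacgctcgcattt

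The E-box core was in the windows of 3 of the 7 genes, Ctsa, Ctsd and Ctsl, against 7.15% of all 32851 windows in the table. The extended form was in those of Ctsa and Ctsd, against 0.974% of windows. In the Ctsa window it occurred at 2 places, 13 bases before and 4 bases after the start, and in Ctsd it lay 99 bases before the start. The IRF motif of Ctss lay 21 bases before its start, against a share of 3.44% of windows. The PU.1 motif was in Ctss and Ctsc, against 3.2% of windows. Each share counts single windows, of which these 7 genes had 8. Ctsa had 2 of them, and its upstream window held none of the motifs. These matches describe the letters of the reference and no binding was measured.

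All 8 cathepsins and cystatin B were higher in the arrays labelled sham EPO than in those of sham none, and cystatin C did not pass the test. The rises ran from 1.56-fold for Ctsh to 5.92-fold for Ctsz. Limma called 9 of the 10 genes higher at an adjusted p under 0.05 (Benjamini-Hochberg over all rows), where 11.5% of all rows were called higher. For the same 9 genes every sham EPO array lay above every sham none array, which held for 7.7% of rows. The median log2 difference of the 10 genes was 1.24, beside 0.03 over all rows. With each array centred on its median the row median became -0.15 and that of the 10 genes 1.07, with 9 genes still called higher. Among the 11 arrays whose titles carry the code 3D, whose meaning is not given, 6 of the 10 passed, and Ctsa, Ctsh and Cstb did not.

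**Figure D1:**
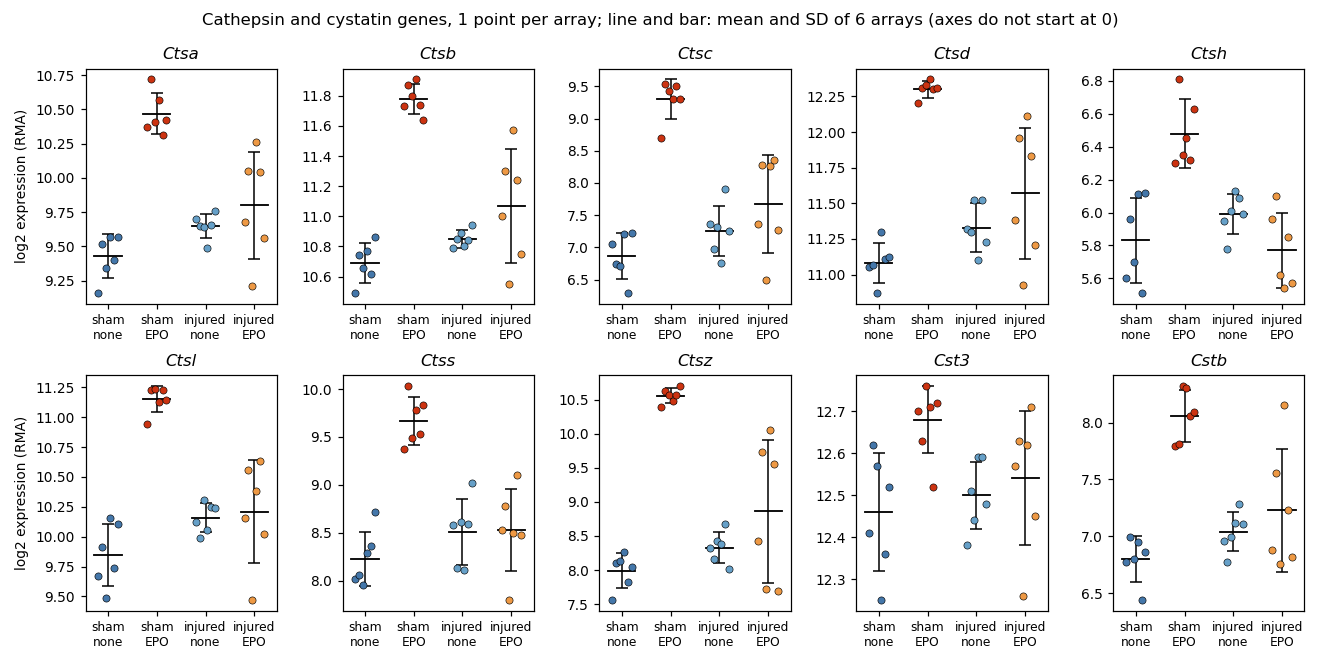
Log2 expression of each gene (vertical axis, RMA values) on each array, by group (horizontal axis), with the mean and SD of 6 arrays. The sham EPO points of every gene but Cst3 lie above all sham none points, and the injured EPO points are widely spread, from 7.69 to 10.06 for Ctsz.

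The carboxypeptidase cathepsin Z and the dipeptidyl peptidase cathepsin C differed most. Ctsz (row 6893630), which trims single residues from the carboxy end of proteins, measured 7.56 at the lowest, 8.07 at the median and 8.27 at the highest in sham none. In sham EPO its lowest, median and highest values were 10.39, 10.57 and 10.7. The groups lay far apart, and the difference was 2.57 ± 0.30 (log2 ± SE, n = 6 per group, limma adjusted p = 1.03e-06). Ctsc (row 6962376), which activates the serine proteases of immune cells, ran from 6.29 through a median of 6.9 to 7.23 in sham none. It ran from 8.7 through 9.37 to 9.54 in sham EPO, a difference of 2.43 ± 0.26 (limma adjusted p = 3.83e-07). Its lowest sham EPO array, replicate 1, stood apart from the other 5 but above all sham none arrays. Only 0.275% of all rows had a larger difference than Ctsz in either direction, and 0.327% a larger one than Ctsc.

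Among the endopeptidases, Ctss and Ctsl came next. Ctss (row 6899683), which trims the invariant chain of MHC class II in antigen-presenting cells and stays active at neutral pH, ran from 7.96 through 8.17 to 8.72 in sham none and from 9.37 through 9.65 to 10.03 in sham EPO. The gap between the groups was a difference of 1.44 ± 0.18 (limma adjusted p = 3.46e-06), or 2.71-fold. Ctsl (row 6813887), a broad lysosomal endopeptidase, ran from 9.49 through 9.83 to 10.16 and from 10.94 through 11.18 to 11.24, a difference of 1.31 ± 0.15 (limma adjusted p = 6.73e-07). Ctsb (row 6819694), which cuts both inside proteins and at their carboxy end, moved from a median of 10.7 (range 10.49 to 10.86) to 11.77 (11.64 to 11.91), a difference of 1.09 ± 0.12 (limma adjusted p = 4.22e-07). For all of these the sham EPO arrays were the high ones and the groups did not overlap.

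The aspartic and serine enzymes rose by like amounts. Ctsd (row 6972294), the main aspartic protease of the lysosome, ran from 10.87 through 11.09 to 11.3 in sham none and from 12.2 through 12.31 to 12.37 in sham EPO. Its difference was 1.22 ± 0.15 (limma adjusted p = 1.34e-06), and the 6 sham EPO arrays lay within 0.17 of each other. Ctsa (row 6883120), which also protects beta-galactosidase and neuraminidase in the lysosome, ran from 9.16 through 9.46 to 9.57 and from 10.31 through 10.42 to 10.72. Its difference was 1.04 ± 0.13 (limma adjusted p = 2.52e-06). The aminopeptidase gene Ctsh (row 6991264) had the smallest rise among the cathepsins, from a median of 5.83 (5.51 to 6.12) to 6.4 (6.3 to 6.81), a difference of 0.64 ± 0.12 (limma adjusted p = 0.000409). Its groups came close to each other but did not overlap.

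The inhibitors did not move alike. Cstb (row 6769080), whose loss causes a progressive myoclonus epilepsy, ran from 6.44 through 6.83 to 6.99 in sham none and from 7.79 through 8.08 to 8.32 in sham EPO, a difference of 1.26 ± 0.18 (limma adjusted p = 1.3e-05). That lay among the differences of the cathepsins. Cst3 (row 6891905) ran from 12.25 through 12.47 to 12.62 in sham none and from 12.52 through 12.71 to 12.76 in sham EPO, and the groups overlapped. Its difference was 0.22 ± 0.08 (limma adjusted p = 0.0594), with a 95% confidence interval of 0.05 to 0.38. The interval of Ctsh, the next smallest, was 0.39 to 0.89. Cst3 passed in 7 of 35 alternative fits that keep the labelled groups, and its difference was 0.05 with each array centred on its median.

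In the arrays labelled injured none no gene of the 10 passed against sham none, although all 10 estimates were above 0. The differences ran from 0.04 for Cst3 to 0.39 for Ctsc, with a median of 0.24 beside 0.08 over all rows. Limma called 0 of 23238 rows (0% of rows), with a smallest adjusted p of 0.234, and 7.76% of rows had an unadjusted p under 0.05, among them 1 of the 10 genes, Ctsl. Ctsl ran from 9.99 through 10.18 to 10.31 in injured none, overlapping sham none, with a difference of 0.31 ± 0.15 (limma adjusted p = 0.637). The 95% intervals allowed up to 0.94 for Ctsc and up to 0.96 for Ctsz, and up to 0.21 for Cst3. The arrays labelled sham EPO were higher than those of injured none in the same 9 genes, by 0.48 ± 0.12 for Ctsh to 2.23 ± 0.30 for Ctsz, where 8.28% of rows were called higher. Cst3 differed by 0.17 ± 0.08 there (limma adjusted p = 0.14). For these 9 genes every sham EPO array lay above every injured none array, against 5.57% of rows. Among the code 3D arrays 5 of the 9 passed, and Ctsa (0.88), Ctsd (0.99), Ctsh (0.39) and Ctsl (1.04) did not.

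**Figure D2:**
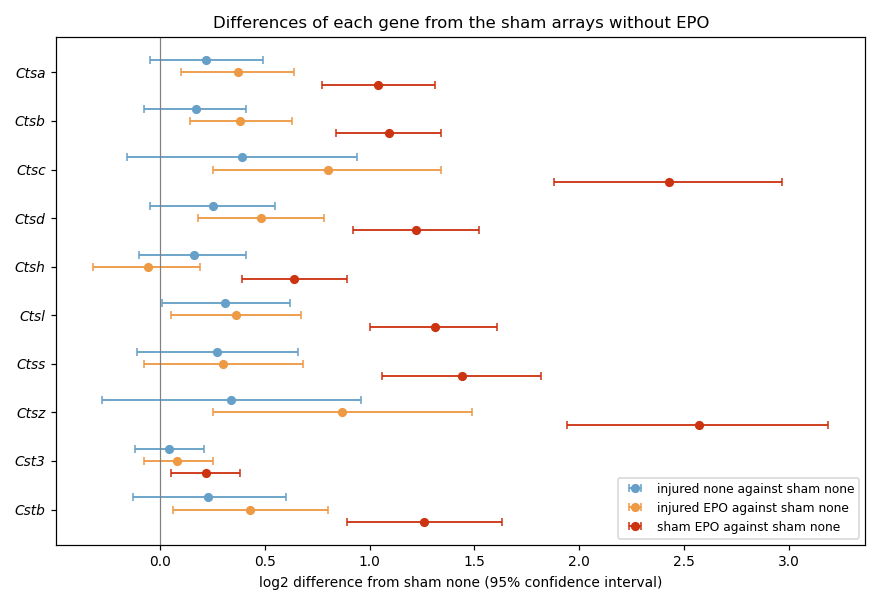
Log2 difference of each gene from sham none (horizontal axis) with its 95% confidence interval, for the other 3 groups (6 arrays each). Sham EPO lies to the right for 9 genes, from 0.64 for Ctsh to 2.57 for Ctsz, while injured EPO lies between, except for Ctsh at -0.06.

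With EPO in both groups, the 8 cathepsins and cystatin B were lower in the arrays labelled injured than in those labelled sham. Limma called 9 of the 10 genes lower, where 7.83% of all rows were called lower. Ctsz fell by 1.70 ± 0.30 (limma adjusted p = 0.000328) to a mean of 8.86 ± 1.05 (SD, n = 6). Ctsc fell by 1.63 ± 0.26 (limma adjusted p = 0.000128) to 7.67 ± 0.76 (SD). Ctss fell by 1.14 ± 0.18, Ctsl by 0.95 ± 0.15, Cstb by 0.83 ± 0.18, Ctsd by 0.74 ± 0.15, Ctsb by 0.71 ± 0.12, Ctsh by 0.70 ± 0.12 and Ctsa by 0.67 ± 0.13. All 6 injured EPO arrays lay below every sham EPO array in the 8 cathepsins, which held for 2.75% of rows. For Cstb 5 of 6 did. Cst3 differed by -0.13 ± 0.08, did not pass, and had overlapping groups. Over the code 3D arrays the differences were of like size (-1.42 for Ctsz and -1.16 for Ctss), but none of the 10 passed.

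Against the groups without EPO, the injured EPO arrays gave no call. Limma called 0 of 23238 rows (0%) against sham none, where 5.91% of rows and 7 of the 10 genes had an unadjusted p under 0.05. The 7 were Ctsa, Ctsb, Ctsc, Ctsd, Ctsl, Ctsz and Cstb, with differences of 0.36 ± 0.15 for Ctsl to 0.87 ± 0.30 for Ctsz (limma adjusted p from 0.691 to 0.775). Against injured none limma again called 0 rows (0%), with 8.14% of rows and 0 of the 10 genes at an unadjusted p under 0.05. The differences ran from -0.22 ± 0.12 for Ctsh to 0.53 ± 0.30 for Ctsz. Without injured EPO replicate 4 that of Ctsz was 0.29, the lowest of the fits that left out 1 array, and the highest was 0.76. By group mean, 9 of the 10 genes had the rising order sham none, injured none, injured EPO and sham EPO, in which no difference between the first 3 groups passed the test. Cst3 is among the 9, and none of its steps passed. Ctsh alone had its lowest mean in injured EPO (5.77 ± 0.23 SD), below sham none (5.83 ± 0.26) by less than the spread.

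The 6 injured EPO arrays were spread more widely than those of any other group for 9 of the 10 genes, Ctsh being the exception. Ctsz measured 8.42, 9.73, 7.72, 10.06, 9.55 and 7.69 on replicates 1 to 6. Replicates 2, 4 and 5 were the high ones, and replicates 3 and 6 were near the sham none arrays. Ctsd measured 11.38, 11.96, 10.93, 12.11, 11.83 and 11.21 on the same arrays, and Ctsb 11, 11.3, 10.55, 11.57, 11.24 and 10.75. Replicates 2 and 5 were among the highest 3 arrays in 10 of 10 genes and replicate 4 in 8, and replicate 3 was the lowest in 8. The array medians over all rows were 5.33, 5.37 and 5.28 on replicates 2, 4 and 5 and 5.05 on replicate 3, the lowest of the 24 arrays. The part of these array medians in the order was not tested.

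The genes did not share that order fully. On replicate 4 Ctsz stood 2.06 above the mean of sham none and Cstb 1.35 above it, while Ctss stood 0.26 above it and Ctsh 0.30 below it (-0.30). Ctsh was lowest on replicate 4, at 5.54, the array on which Ctsa, Ctsb, Ctsd, Ctsz and Cstb were highest. Ctss and Ctsc were highest on replicate 5, at 9.1 and 8.36. Cstb on replicate 4, at 8.15, reached into the sham EPO range, while its other 5 values ran from 6.76 to 7.56.

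**Figure D3:**
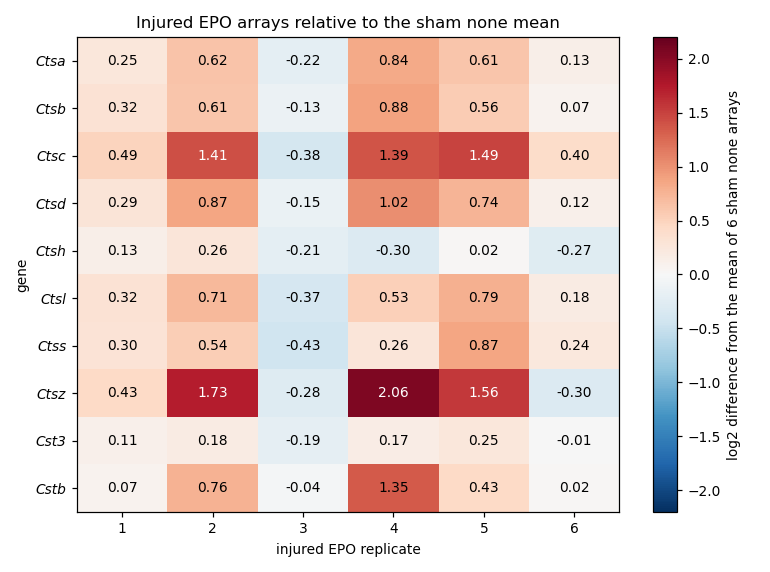
Log2 difference of each injured EPO array (horizontal axis, replicates 1 to 6) from the mean of the 6 sham none arrays, for each gene (vertical axis). Replicates 2, 4 and 5 are high for Ctsz (1.73, 2.06 and 1.56) and replicate 3 is below 0 for every gene, while Ctsh stays within 0.30 of that mean.

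The response to EPO differed between injured and sham mice, as labelled, for the same 9 genes. The interaction (the EPO difference in injured minus that in sham) was -2.04 ± 0.42 for Ctsz (limma adjusted p = 0.00389), -2.02 ± 0.37 for Ctsc (0.00137) and -1.41 ± 0.26 for Ctss (0.00135). It was -1.26 ± 0.21 for Ctsl, -1.06 ± 0.25 for Cstb, -0.98 ± 0.21 for Ctsd, -0.89 ± 0.18 for Ctsa, -0.87 ± 0.17 for Ctsb and -0.86 ± 0.17 for Ctsh. Limma called 9 of 10 lower, where 5.75% of all rows were. Cst3 had an interaction of -0.18 ± 0.11 (limma adjusted p = 0.395). The interaction is the same when the titles are read the other way, since that reading exchanges its 2 middle terms. With only the code 3D arrays the interaction of Ctsz was -1.71 and that of Ctsc -2.18, and none of the 10 passed.

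Other genes of the lysosome changed in part. Of 10 further cathepsin genes, 2 rose in sham EPO against sham none and none fell, where 11.5% of all rows were called higher. The median difference of these further genes was 0.17. The 2 were Ctsw, of cytotoxic lymphocytes (0.78 ± 0.11), and Ctse, an aspartic protease (0.39 ± 0.11). Ctse lost its call when the arrays were rescaled. The bone-resorbing cathepsin gene Ctsk differed by 0.40 ± 0.17 and Ctso by 0.31 ± 0.17, and neither passed. With each array centred on its median 1 further cathepsin gene was called higher and 1 lower. Ctsg, Ctsj, Ctsm, Ctsq and Ctsr, named because of their values, lay low on the scale. Their sham none means were 2.96, 2.65, 2.59, 2.43 and 2.44, where the array medians ran from 5.05 to 5.43. The sham none means of Ctse (3.5), Ctsw (3.91) and Ctsk (4.79) also lay below those medians. Of 9 further cystatin genes none was called (median 0.01), and the 4 largest differences were 0.21 ± 0.10 for Fetub, -0.14 ± 0.17 for Cstl1, 0.10 ± 0.11 for Cst11 and -0.07 ± 0.07 for Cst9. Centring gave 1 lower call among them and turned their median to -0.16. The mean level of the 9 ran from 2.79 to 2.91 in sham none and from 2.81 to 2.95 in sham EPO.

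Among 28 other lysosomal hydrolases 16 rose and none fell, with a median of 0.48, where 11.5% of all rows were called higher. With centring 13 were called higher and 1 lower. Gusb, which releases glucuronic acid from glycosaminoglycans, rose by 1.64 ± 0.19, and Lgmn, the asparaginyl endopeptidase that matures several cathepsins, by 1.21 ± 0.15. The carboxypeptidase gene Scpep1 rose by 1.10 ± 0.16 and the acid lipase gene Lipa by 0.93 ± 0.22. Of 20 genes of the lysosomal membrane and its acidification 9 rose and 3 fell, where 7.6% of all rows were called lower. Cd68, a membrane glycoprotein of phagocytes, rose by 3.13 ± 0.37, the proton pump subunit Tcirg1 by 1.37 ± 0.19, the cholesterol carrier Npc2 by 1.16 ± 0.16 and Lamp2, which serves chaperone-mediated autophagy, by 1.12 ± 0.16. The 3 lower genes, which are named because of their values, were proton pump subunits: Atp6v0a1 (-0.59 ± 0.09), Atp6v1a (-0.45 ± 0.09) and Atp6v1b2 (-0.29 ± 0.09). With centring 7 were called higher and 6 lower, where most of the calls over all rows were lower.

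Of 12 genes of lysosomal sorting, cofactors and regulators 6 rose and 1 fell, and with centring 4 and 2. Grn, the progranulin that is processed in lysosomes, rose by 1.24 ± 0.15 and Cln3, a lysosomal membrane protein, by 0.63 ± 0.11. Of the regulators of the MiT family, Tfeb, named because of its value, rose by 0.55 ± 0.09 (limma adjusted p = 9.03e-05). Mitf rose by 0.63 ± 0.18 (limma adjusted p = 0.0123) and Tfe3 by 0.59 ± 0.18 (limma adjusted p = 0.0205). Their activity was not measured, and their part in the differences of the cathepsins was not tested. The call of Tfe3 was lost when the arrays were rescaled. The lower gene, also named because of its value, was Gnptab (-0.32 ± 0.10), which makes the mannose-phosphate tag of lysosomal enzymes. Of 6 genes of MHC class II presentation 4 rose, and with centring 3 rose and 1 fell. Ifi30, the lysosomal thiol reductase, rose by 1.71 ± 0.28, Cd74, the invariant chain cut by cathepsin S, by 1.05 ± 0.18, H2-Ab1 by 0.64 ± 0.13 and H2-Aa by 0.32 ± 0.10, the last of which lost its call on rescaling.

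In injured EPO against sham EPO, where 6.05% of all rows were called higher and 7.83% lower, these lists moved the other way in part. Among the other hydrolases 9 of 28 fell and none rose, among the membrane and acidification genes 6 of 20 fell and 3 rose, and among the sorting genes 4 of 12 fell. Of the MHC class II genes 3 of 6 fell, of the further cathepsins 1 of 10, and none of the 9 further cystatins was called. With each array centred on its median the sorting genes had 1 lower and 1 higher call, the membrane and acidification genes 5 and 5, the hydrolases 8 and 1, and the further cystatins 1 higher call. Quantile normalization gave 15 lower calls among the hydrolases.

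**Figure D4:**
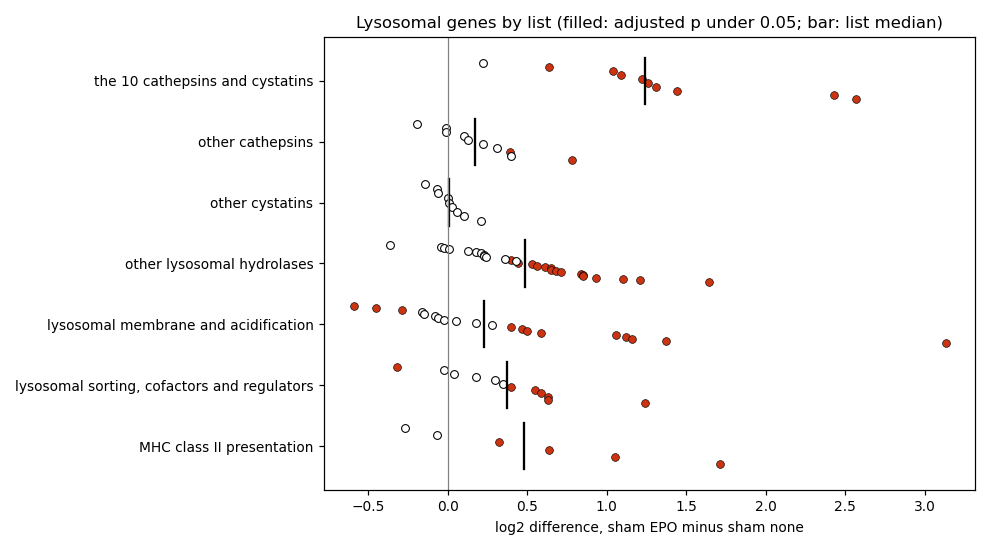
Log2 difference between sham EPO and sham none (horizontal axis) of each measured gene in 7 lists. Filled points passed an adjusted p of 0.05 and bars are list medians, from 1.24 for the 10 cathepsins and cystatins to 0.01 for the other cystatins.

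Markers of several cell types moved with the cathepsins, and their part in the differences was not tested. All 6 measured perivascular macrophage markers rose in sham EPO, and their mean level per array ran from 4.11 to 4.56 in sham none, 5.28 to 5.92 in sham EPO, 4.4 to 4.72 in injured none and 4.29 to 4.9 in injured EPO. Of 11 microglia identity markers 4 rose and 3 fell (mean level 6.06 to 6.49 and 6.45 to 6.67 in the sham groups), with Itgam at 1.56 ± 0.20 and P2ry12 at -0.53 ± 0.11. Of 11 infiltrating leukocyte markers 5 rose and none fell (mean level 3 to 3.26 and 3.23 to 3.98), and with centring 4 rose. The 5 were the pan-leukocyte gene Ptprc (1.66 ± 0.16), the neutrophil and monocyte genes S100a8 (1.13 ± 0.32) and S100a9 (0.90 ± 0.26), the monocyte receptor gene Ccr2 (1.03 ± 0.21) and Plac8 (0.44 ± 0.12). In this order their sham none means were 3.43, 2.52, 3.08, 2.58 and 2.63, low on the scale. Their SDs were 0.09, 0.18, 0.26, 0.18 and 0.1 in sham none and 0.36, 1.15, 0.77, 0.66 and 0.34 in sham EPO. Plac8 lost its call when the arrays were rescaled. The T cell genes Cd3e (-0.21 ± 0.14) and Cd3g (0.12 ± 0.08), the B cell genes Cd79a (-0.32 ± 0.24) and Ms4a1 (0.00 ± 0.05), the killer cell gene Nkg7 (-0.07 ± 0.11) and the granule enzyme gene Mpo (-0.01 ± 0.09) did not pass. All 11 neuron markers fell (mean level 10.47 to 10.76 and 9.28 to 9.88). Endothelial markers rose in 7 of 9 (6.4 to 7.02 and 7.35 to 7.74), and with centring 6 rose and 1 fell. In injured EPO against sham EPO 6.05% of all rows were called higher and 7.83% lower. In that contrast all 6 perivascular macrophage markers fell, all 11 neuron markers rose and 7 of 9 endothelial markers fell, along with the fall of the cathepsins. Of the 11 microglia identity markers 2 rose and 3 fell there, and of the 11 infiltrating leukocyte markers 5 fell and none rose. With centring 3 microglia markers rose and 3 fell, and 4 leukocyte markers fell.

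Choroid plexus, which secretes much cystatin C, had markers with a wide range in sham none (mean level 5.05 to 8.12, against 7.08 to 7.93 in sham EPO), and 0 of 7 passed. Astrocyte identity markers rose in 3 of 8 and fell in 1 (9.1 to 9.49 and 9.3 to 9.66), and with centring rose in 3 and fell in 3. Oligodendrocyte markers rose in 1 of 9 (7.49 to 8.71 and 8.06 to 8.91). In sham EPO against sham none 11.5% of all rows were called higher and 7.6% lower. The 1 call of 9 therefore does not set the oligodendrocyte list apart from all rows.

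**Figure D5:**
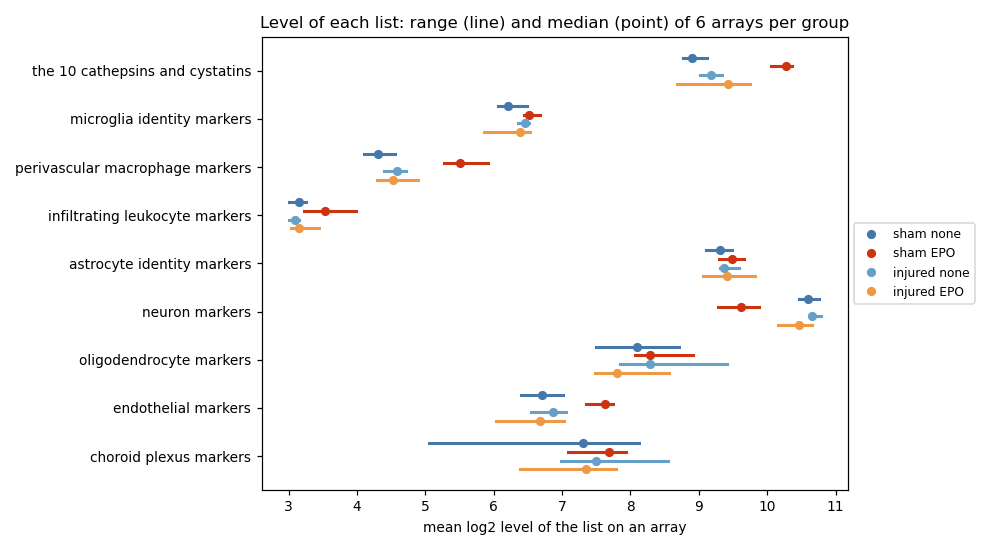
Mean log2 level of each marker list on an array (horizontal axis), as the range (line) and median (point) of the 6 arrays of a group. Sham EPO stands apart from the other groups for the 10 cathepsins and cystatins (10.05 to 10.36), the perivascular macrophage markers, the endothelial markers (7.35 to 7.74) and the neuron markers.

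The genes whose values followed each of the 10 most closely over the 24 arrays were looked up among 14929 other rows with 1 symbol, as a description that the group differences dominate. The values are Pearson's r. Ctsz was closest to the lipid droplet gene Plin2 at 0.988, then Plek at 0.986 and Grn at 0.984. For Ctsc the closest were Tmem176b at 0.974, Npl at 0.971 and Syngr2 at 0.969. Ctss was closest to the leukocyte tetraspanin gene Cd53 at 0.963, then Tmem176a at 0.938 and Anxa5 at 0.936. For Ctsl the closest were Anxa5 at 0.986, Tmem176b at 0.969 and Pros1 at 0.967. Ctsb was closest to C3ar1, the receptor of complement fragment C3a, at 0.984, then Plin2 at 0.982 and Renbp at 0.981. For Ctsd the closest were the complement gene C1qa at 0.979, Tmem176b at 0.977 and C3ar1 at 0.975. Ctsa was closest to Lgmn at 0.973, then C1qc at 0.971 and C3ar1 at 0.969. For Cstb the closest were S100a6 at 0.964, Dtl at 0.963 and Hspb6 at 0.963. Ctsh was closest to Anxa1 at 0.889, then Clec4n at 0.880 and Aldh1a2 at 0.872. For Cst3 the closest were Nras at 0.873, Ppp2r5a at 0.855 and Phykpl at 0.855. Ctsh and Cst3 had the loosest neighbours.

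With the group means removed, the closest rows (r of the first) were the astrocyte filament gene Gfap (0.948), Plin2 and Plek for Ctsz, Antxr1 (0.899), Mgst1 and Lgals3bp for Ctsc and Selenop (0.866), Cd53 and Folh1 for Ctss. They were Anxa5 (0.941), Sec13 and Ccdc174 for Ctsl, C3ar1 (0.921), Cd68 and Plek for Ctsb and Tmem176b (0.913), C1qa and Plek for Ctsd. For the rest they were Lgmn (0.900), Clu and Cd68 for Ctsa, Hspb6 (0.913), Idh2 and Mdk for Cstb, Dbpht2 (0.796), Anxa1 and Gjb2 for Ctsh and Ica1 (0.860), C1galt1 and Ankrd11 for Cst3. Among the 10 genes themselves the median of these within-group correlations with the other 9 was highest for Ctsd (0.83) and lowest for Ctsh (0.33) and Cst3 (0.41). The arrays share array-wide shifts and the spread was widest in the injured EPO group for 9 of the 10 genes, so these values carry no test.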

How the data were processed

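The deposited values are log2 expression values of Affymetrix Mouse Exon 1.0 ST arrays, per the labels' protocols. The submitters' processing notes name Affymetrix Expression Console and RMA, without versions, as what the authors used. RMA as a method corrects background, equalises the arrays' distributions and combines the probes of a row. The summary level and genome build were not stated. The table had 23238 rows and 0 missing values. It carries no background level for a row, so no gene was called undetected.

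Row names came from the platform annotation: 14939 rows had 1 symbol, 989 had several and 7310 are unnamed here. For a gene with several rows the highest by mean was taken. Samples were grouped by injury status and treatment. Replicate numbers follow accession order and pair no samples.

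With limma 3.58.1 (R 4.3.3), a model of group means was fitted to each row using all 24 arrays, leaving 20 residual degrees of freedom. It gave 7 contrasts, with Benjamini-Hochberg adjustment over all rows, a threshold of 0.05 and no filter on level. The fit was tested on simulated data. A list's mean level is the average log2 value of its measured genes on an array. The members and gene lists were chosen with earlier results of these data known. The text names the 10 genes, the 4 genes of each lysosomal list that differed most in sham EPO against sham none, and the 3 closest rows of each gene. Genes outside this rule are marked as named because of their values, or are cell type markers. Alternatives covered scaling, dim or unnamed rows, weights for arrays, a trend in the variance, the code in the titles (as a block, or 3D alone), fitting the compared groups alone, the titles read the other way, the Y-linked gene Eif2s3y as a covariate, the threshold, and leaving out each array.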

Additional observations from a re-analysis of the deposited data

Results flagged for a closer look

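The effect of EPO differed between injured and sham mice, as labelled, in a test of the interaction for 9 of the 10 genes. The log2 interaction was -0.89 for Ctsa, -0.87 for Ctsb, -2.02 for Ctsc, -0.98 for Ctsd, -0.86 for Ctsh, -1.26 for Ctsl, -1.41 for Ctss, -2.04 for Ctsz and -1.06 for Cstb. In 40 sets of 6 arrays (10 genes in 4 groups), 2 held an array far from the others, where chance gives about 1 in 20. Both were sham EPO replicate 1, which was low for Ctsc (8.7) and for Ctsl (10.94). That array was the lowest of its group in 7 of the 10 genes and was still above every sham none array for Ctsc and Ctsl.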

How the results depend on the processing

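Over the alternatives that keep the labelled groups, the 9 rises in sham EPO against sham none kept their direction. Only the fit of the 11 code 3D arrays ended calls among them, for Ctsa (1.06, adjusted p = 0.0779), Ctsh (0.57, 0.129) and Cstb (1.41, 0.0641). Cst3 passed after quantile normalization (0.17), among rows with 1 symbol, with a variance trend and with array weights, and without any 1 of 3 arrays. Leaving out each array in turn gave 9 to 10 genes higher and 3819 to 5048 rows in sham EPO against sham none. It gave 9 genes in every fit for the other contrasts that had calls. Their rows ran from 2520 to 3791 (injured EPO against sham EPO), 4091 to 5297 (sham EPO against injured none) and 1233 to 2411 (interaction). Against sham none, injured EPO gave 0 to 1 row.

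The code 3D arrays alone called 862 rows for sham EPO against sham none, 437 rows and 0 genes lower for injured EPO against sham EPO, 1340 rows and 5 genes higher for sham EPO against injured none, and 56 rows and 0 genes for the interaction. It holds 2 arrays in each sham group. Fitting the compared groups alone called 2019 rows for injured EPO against sham EPO. With the title code as a fixed block the interaction had 902 rows. At an adjusted p of 0.01 the counts were 1920 for injured EPO against sham EPO, 3055 for sham EPO against injured none and 745 for the interaction, where Cstb no longer passed. Centring the arrays gave 1 row for injured none against sham none, and moved the share of higher calls in sham EPO against sham none from 60.3% to 29.5%, in injured EPO against sham EPO from 43.6% to 69%, in sham EPO against injured none from 41.2% to 24.8% and in the interaction from 21.2% to 57%.

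With the titles read the other way injured none against sham none had 4445 rows and 9 genes higher, sham EPO against sham none 0 and 0, injured EPO against sham EPO 0 rows and 0 genes lower, injured EPO against injured none 3226 rows and 9 genes lower, and sham EPO against injured none 0 genes higher and 9 lower. In that reading injured EPO against sham EPO turned to 0.15 (Ctsa), 0.22 (Ctsb), 0.41 (Ctsc), 0.23 (Ctsd), 0.05 (Ctsl), 0.02 (Ctss), 0.53 (Ctsz), 0.04 (Cst3) and 0.20 (Cstb). Injured EPO against injured none turned to -0.67, -0.71, -1.63, -0.74, -0.95, -1.14, -1.70, -0.13 and -0.83 for the same genes. Sham EPO against injured none turned to -0.82 (Ctsa), -0.93 (Ctsb), -2.04 (Ctsc), -0.97 (Ctsd), -0.48 (Ctsh), -0.99 (Ctsl), -1.16 (Ctss), -2.23 (Ctsz), -0.17 (Cst3) and -1.03 (Cstb), by construction.

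Small differences that had not passed also changed sign. Cst3 turned to -0.02 for injured EPO against injured none after quantile normalization and 0 with code 3D, to -0.07 for injured EPO against sham none with code 3D, and to 0.02 for the interaction with centring. For injured none against sham none it turned to -0.03 with centring, -0.02 with the block and -0.06 with code 3D. Ctsh in injured EPO against sham none turned to 0.03 with array weights. Without 1 array, injured EPO against injured none ran from -0.04 to 0.19 for Ctsl, from -0.09 to 0.17 for Ctss, from 0.27 to 0.64 for Ctsc and from 0.29 to 0.76 for Ctsz, none of which passed. Where no cause is given, the cause was not tested. No gene of the 10 had a further row, so the alternative of using another row gave no value. The title codes, which the groups share in part, served as the only block, and the labels give no other pairing.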
